A study of Mus musculus with 8 samples.

Results

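The data described here are the gene signals of the lower jejunal crypt in fed mice 3 h after etoposide, read on 4 microarrays, 1 per mouse. Etoposide is a topoisomerase II poison that leaves DNA double-strand breaks. A gene name entered the description when its brightest probe was well above background on all 4 fed arrays, and 15811 of the 30214 names on the array (52.3%) did so, while 14403 did not. Genes were then ordered by their mean signal, and the spread between the 4 arrays was taken for each. The values that chose and ordered the genes are therefore described without a test.

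All mice of the study carried the Lgr5-EGFP-IRES-CreERT2 knock-in on 1 allele of Lgr5, an intestinal stem cell receptor gene, were 4 to 6 weeks old, and received 80 mg/kg etoposide into the tail vein. The fed group described here had food until the injection, and the series' other 4 arrays came from mice fasted for 24 h before it. After the injection the mice were housed singly with moistened pellets, and the jejunum was taken at 3 h and fixed in methacarn. Lower crypts were cut from paraffin sections with a laser, so a capture holds whatever cells lay under the beam. No array of the 8 came from a mouse without etoposide, so no value here says what the drug changed. Nothing in the labels says how many crypts or sections made up a capture.

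Fed mice 1 and 2 are labelled male, and fed mice 3 and 4 female. Xist, the RNA of the inactive X chromosome, read -4.93, -5.37, 2.43 and -6.01 in fed mice 1 to 4, on the scale defined in the next paragraph. Eif2s3y, a gene of the Y chromosome, read -2.84, -1.82, -5.61 and -1.39. The array labelled fed female 4 thus had Xist not well above background and the highest Eif2s3y signal, against its label. It keeps its fed label here, and every statement on fed mouse 4 refers to the library labelled so. Each fed array lay on a slide of its own, so mouse, capture and slide cannot be told apart.

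Signals are given as log2 of the processed signal minus the array's 75th percentile over probes, so 0 is that percentile and 1 unit is a doubling. Fed mouse 1 is the array of fed replicate 1, and so on. A level is the mean of the 4 arrays on this scale, and a deviation is 1 array minus that mean. The share of probes that passed the background criterion was lowest in fed mouse 1 (53.2%) and highest in fed mouse 4 (62.7%). The 75th percentile of the raw signal ran from 1120 in fed mouse 1 to 1659 in fed mouse 4, and no spot was saturated. Probes differ in how strongly they bind and in what else they bind, so the order is one of signals and not of transcript copies. In bulk captures such as these, fewer cells of a type and less RNA per cell cannot be told apart.

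The small intestinal crypt is a pocket of epithelium whose base holds Lgr5-positive stem cells packed between Paneth cells. Paneth cells secrete alpha-defensins, lysozyme and other antimicrobial proteins into the crypt. Above them lie dividing progenitors that become absorptive enterocytes, mucus-making goblet cells, hormone-making enteroendocrine cells and chemosensory tuft cells. Crypt base cells are sensitive to DNA damage, and p53 is the transcription factor best known for their early response, through genes such as Cdkn1a, a cell cycle inhibitor, and Bbc3, a trigger of apoptosis.

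Before any gene is discussed, the sequences at the very top of the order are shown, because they set how its first ranks can be read. The excerpts below are 30 bases each of the 60-base probes of leading genes, printed 5′ to 3′ as the array's files give them, with the capitals marking a tandem run, that is, a unit of up to 4 bases repeated without a break.
Ulk3: TTTCTTTCTTTCTTTCTTTCTTTCcttctt
Dennd4a: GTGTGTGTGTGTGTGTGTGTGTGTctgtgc
Pak4: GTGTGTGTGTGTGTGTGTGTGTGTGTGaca
Ms4a4c: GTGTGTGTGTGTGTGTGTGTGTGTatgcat
Sema4c: aTGTGTGTGTGTGTGTGTGTGTGTtgtaac
Tacr2: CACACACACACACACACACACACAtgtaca
Vash1: GGAGGAGGAGGAGGAGGAGGAGGAagggga
Pkp3: gacCTCTCTCTCTCTCTCTCTCTCctctct

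The signals at the head of the order belonged to these repeat probes. Ulk3, a kinase gene, stood first at 9.003, 8.92, 8.32 and 8.20 in fed mice 1 to 4, with a mean of 8.61. Its probe, placed by the files at chr5:44819058-44819117 of mm9, forward strand, holds a run of 44 bases. The other probe named Ulk3 on the array had a mean of -0.34, so the 2 probes of this name lay far apart in signal. Dennd4a followed at 8.59, Pak4, a kinase gene, at 8.29, and Ms4a4c at 8.26. Exon and UTR positions of the probes were not used here.

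Repeat probes were concentrated near the top. Of the 25 leading genes, 23 (92%) were read by a probe with a tandem run of at least 12 bases, as were 81 of the leading 100 (81%) and 196 of the leading 500 (39.2%). Over the whole order the share was 510 of 15811 (3.23%), and over all probes on the array 653 of 39429 (1.66%). The unit AC, or TG on the other strand, accounted for 64 of the leading 100 genes. For 45 of the leading 100 the array holds another probe of the same name, and the median gap between the probes was 9.54 log2 units, with 42 of the gaps above 3. Symbols from the top of the list, such as Skint7 at 8.19, Sox5 at 8.14, Itsn1 at 8.09 and Rad51c, a recombination repair gene, at 7.90, are therefore given as probe signals only. Of 345 genes read by repeat probes whose chromosome could be compared, 6 (1.74%) had the probe placed on a chromosome other than the gene's. Among the other genes of the order this held for 43 of 11882 (0.362%). That repeat probes read the named transcript was not tested.

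**Figure D1:**
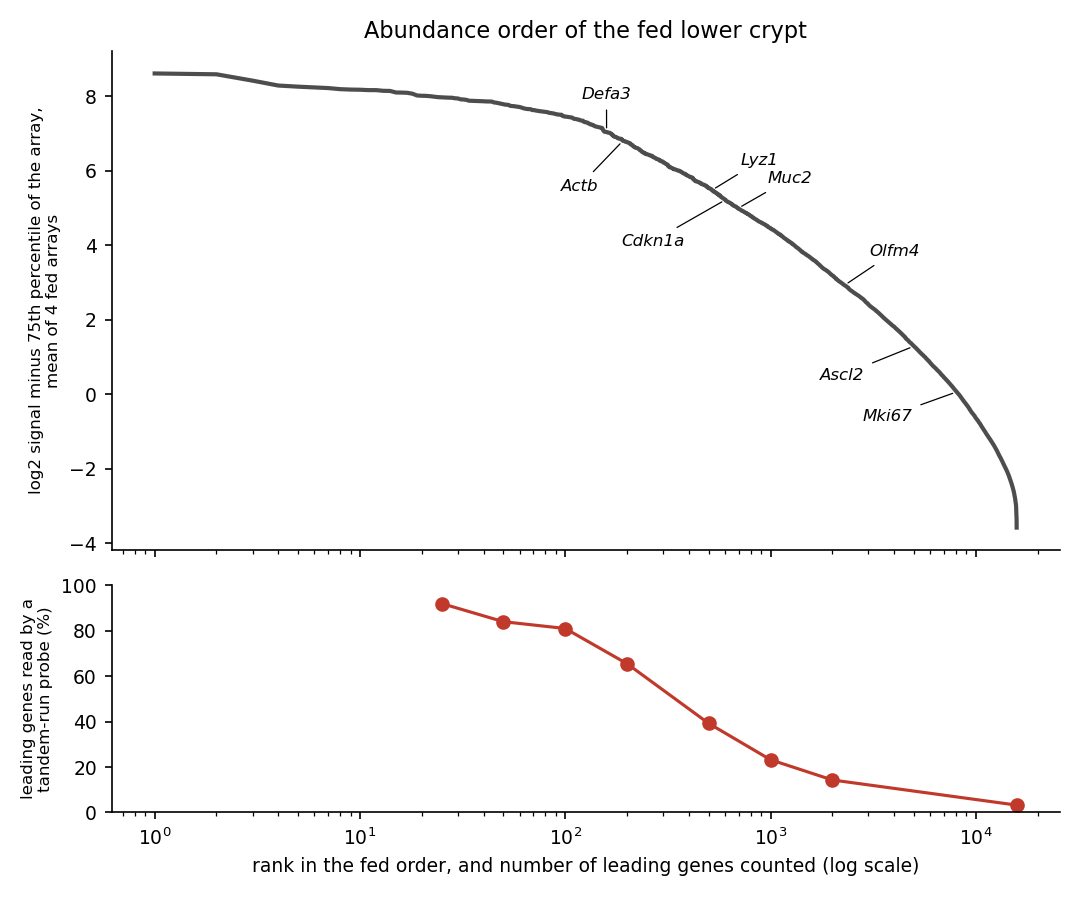
Top, mean log2 signal relative to the array's 75th percentile (y axis) against rank in the order of 15811 genes (x axis, log scale). Bottom, the percentage of leading genes read by a probe with a tandem run of at least 12 bases, for growing numbers of leading genes. The curve falls from 8.61 through a median of 0.12 to -3.58, and the share of repeat probes falls from 92% of the first 25 to 3.23% of all.

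The signal rose with the length of the run. Over all probes of the array, the median level was -3.05 for the 10920 probes whose longest run was 2 to 5 bases and -2.39 for the 9056 with 8 to 9 bases. It was 0.69 for 343 probes with 12 to 15 bases, 2.97 for 113 with 16 to 19, 6.34 for 117 with 20 to 29 and 6.69 for 80 with 30 or more. The unit mattered as well as the length. AC runs of 12 to 15 bases had a median of 5.44 over 56 probes, AT runs of that length -2.24 over 9 probes, and AAG runs of 30 or more bases 2.89 over 29 probes. The median of AC runs of 20 or more bases was 7.87, 7.52, 7.60 and 7.40 on the 4 fed arrays, and between 7.16 and 7.44 on the fasted arrays, so high repeat signals were present on all 8.

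**Figure D2:**
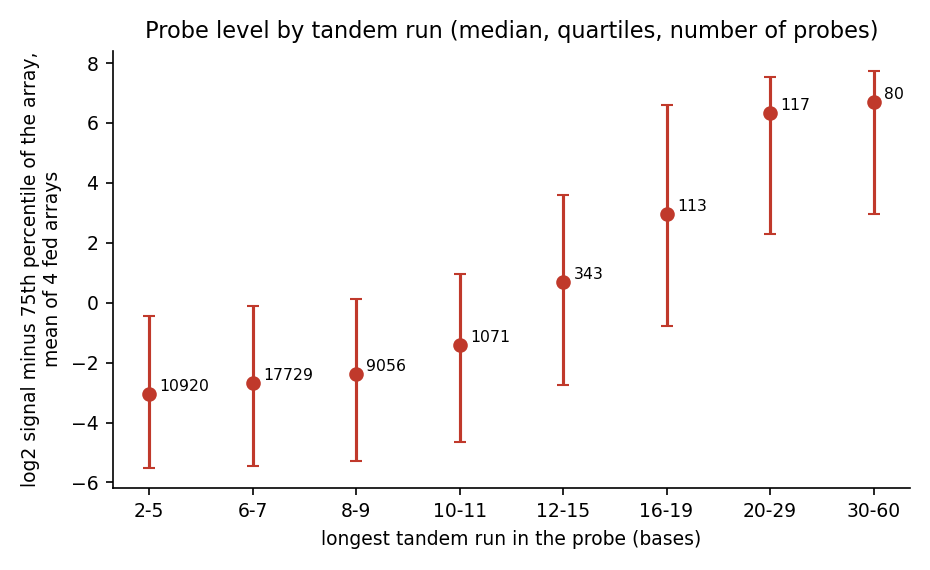
Mean log2 signal over the 4 fed arrays relative to the 75th percentile (y axis) against the longest tandem run in the probe (x axis, bases, in classes), over all probes. Points give the median, bars the quartiles and figures the number of probes of each class, and the median climbs from -3.05 at runs of 2 to 5 bases to 6.69 at 30 or more.

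Several marker genes of the crypt were read by such probes, and their place in the order says nothing safe about the transcript. They include Ephb3, a receptor of crypt base cells, at 7.61, Itgam, a myeloid integrin, at 7.53, Snap25, a synaptic gene, at 7.52, and Pigr, the carrier of secreted immunoglobulin A, at 6.35. The repeat probe named Pigr is placed by the files on chromosome 14 of mm9, and a second probe of that name stood at -0.79. Atp5g1, an ATP synthase subunit gene, stood at 6.08 by a repeat probe and at 1.88 by another. The rule takes the brightest probe of each gene and so takes the higher of such pairs. Among the 5246 names with several probes, the brightest exceeded the next by a median of 2.21, by more than 3 in 1988 (37.9%), and lay within 1 of it in 1392 (26.5%). Genes without a repeat probe, named below, had such gaps too, and these examples were chosen after values were seen. The next probe stood at -0.40 for Fcgbp (level 6.03), -5.26 for Defa-rs2 (7.02), -3.37 for Dclk1 (1.37) and 1.83 for Mt1 (4.89). It lay close for others, at 4.43 for Aen (4.52), 6.75 for Clps (6.80) and 6.04 for Lgals4 (6.07).

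With repeat probes left aside, a choice made after the data were seen, the top of the order was still mixed. Among the leading 100 genes, 8 had only a probe ID for a name, and 38 of the 56 with another probe stood more than 3 log2 units above it. The first alpha-defensin came at rank 44 and the first ribosomal protein gene at rank 68. Rn18s, the 18S ribosomal RNA, stood at 8.07 and Rn4.5s, a small repeat-derived RNA, at 7.94. Histone H4 genes followed, with Hist1h4i at 7.60, Hist2h4 at 7.19 and Hist1h4k at 6.97, genes of near-identical coding sequence whose signals cannot be separated with certainty. Names that a crypt is not known for filled many of the first ranks, for example Nanog, a pluripotency factor, at 7.76, whose next probe was at -3.74. Defa3 at 7.04, Actb at 6.80, Clps, a colipase gene, at 6.80 and Rpsa at 6.78 came below these. Of the order, 850 genes (5.38%) were read by a probe that shares a 15-base stretch with probes of at least 5 names.

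Paneth cell genes stood near the top. Of 18 names on the array that start with Defa or Defcr, the alpha-defensin list here, 14 were in the order. Their median percentile was 98.2, where the gene at the 50th percentile of the order reads 0.12. The share of each list in the order, here and below, is to be read beside the 52.3% of all names. Alpha-defensins under other names are not in this list. Defa3 read 7.70, 6.81, 6.86 and 6.79 in fed mice 1 to 4, Defa-ps1, which the files name as a defensin pseudogene, 7.55, 6.54, 7.15 and 6.93, and Defa-rs2 7.60, 6.52, 7.03 and 6.94. Fed mouse 1 was highest in each of these 3, and in Defa3 the other arrays lay close together. Over the 14 members, fed mouse 1 was highest in 7 and lowest in 3. The median deviations of the list were 0.26, -0.31, 0.08 and -0.05 in fed mice 1 to 4. The name with the largest spread in this list was Defa-rs7, at 0.77, -0.49, 0.44 and 1.13.

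The defensin probes resemble each other, which is shown by printing 3 of them. Capitals mark the bases that differ from the Defa3 probe at the same position, and each is a whole 60-base probe, 5′ to 3′, placed by the files on chromosome 8 of mm9.
Defa3: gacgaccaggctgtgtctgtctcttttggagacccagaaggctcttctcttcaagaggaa
Defa2: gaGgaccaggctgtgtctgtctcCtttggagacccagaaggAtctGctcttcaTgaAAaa
Gm21498: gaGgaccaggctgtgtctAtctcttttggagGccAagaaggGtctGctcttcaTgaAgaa
Defa2 and Gm21498 were chosen for printing after their values were seen. Defa3 and Defa2 differ at 7 of 60 positions, Defa3 and Gm21498 at 8, and Defa2 and Gm21498 at 6. Their levels were 7.04, 6.93 and 6.75. With so few differences, how much of each signal belongs to which defensin is uncertain, and the family is best read as 1 group.

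The other Paneth genes were also high in the order. Of 21 on the array, 20 were in the order, at a median percentile of 92.4. Lyz1, the Paneth lysozyme, read 6.04, 5.26, 5.48 and 5.12 (mean 5.48 ± 0.40, SD, n = 4), at rank 518, with fed mouse 1 highest. Lyz2, the lysozyme of macrophages, read 3.26, 4.55, 4.53 and 4.18, so here fed mouse 1 was lowest. Itln1, an intelectin that binds microbial sugars, read 6.47, 6.35, 6.72 and 6.29, and Clps 7.48, 6.33, 6.95 and 6.42. Gm14851 and AY761184, whose current RefSeq symbols are Defa38 and Defa39, are alpha-defensins kept in this list by their older names. Their levels were 6.69 and 6.17, so the median of this list is not free of alpha-defensins. Pnliprp2, a lipase gene, varied most of this list, at 2.60, 0.20, 1.34 and 0.60.

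The labelled tissue, the lower crypt, thus had its Paneth genes near the top of the signals, and goblet genes were high as well. Muc2, the gel-forming mucin of goblet cells, read 5.001, 4.87, 5.18 and 4.92 (4.99 ± 0.14, SD, n = 4), at rank 695. Tff3, a peptide secreted with the mucus, read 6.82, 6.57, 6.72 and 6.43, Spink4, a secreted protease inhibitor, 6.40, 6.05, 6.42 and 5.86, and Fcgbp, a mucus protein, 5.90, 5.92, 6.19 and 6.10. The fed arrays lay close together in these 3. Of 24 goblet genes, 23 were in the order, at a median percentile of 86.5 and a median SD of 0.30. Zg16, a lectin of the mucus, was the exception in spread, at 1.95 in fed mouse 1 against 3.95, 4.39 and 4.64 in the others.

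**Figure D3:**
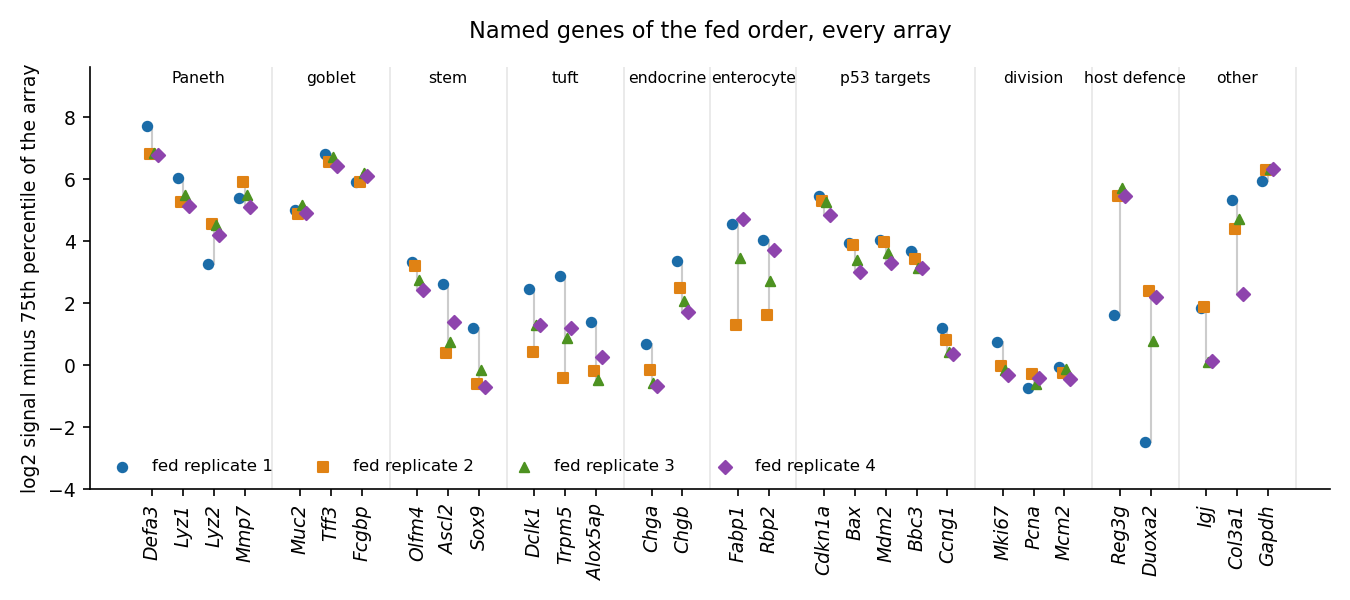
Log2 signal relative to the array's 75th percentile (y axis) of marker genes (x axis), 1 point per fed mouse. Muc2 lies between 4.87 and 5.18, Lyz1 between 5.12 and 6.04 and Olfm4 between 2.44 and 3.32, while Reg3g has fed mouse 1 at 1.62 and the others above 5. Sox9, Alox5ap, Rbp2, Ccng1, Pcna, Mcm2, Igj and Mmp7 were chosen for the plot after values were seen.

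Stem cell genes stood across the whole order. Olfm4, a secreted glycoprotein of crypt base stem cells, read 3.32, 3.20, 2.74 and 2.44 (2.93 ± 0.41, SD, n = 4), at rank 2294 and percentile 85.5. Both Lgr5 probes stayed under the background criterion in all 4 fed mice, the brighter one at -5.44, -5.46, -5.99 and -5.997 and the other at a mean of -5.91. Nothing about Lgr5 transcript follows from that beyond these probes, and every mouse carries 1 knock-in allele of the gene. Cd44, an adhesion receptor, read 4.89, 4.998, 4.88 and 4.84, and Prom1, a membrane protein, 4.40, 4.42, 4.13 and 4.00, and the arrays lay close together in both. The Cd44 probe holds a 15-base stretch found in probes of 11 names, its own among them. The next probe stood at 3.83 for Cd44 and at -3.86 for Prom1.

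Of 21 active stem cell genes, 20 were in the order, with a median percentile of 56.8. Their median deviation was 0.57 in fed mouse 1 and between -0.20 and -0.07 in the others, with fed mouse 1 highest in 14 of 20, and its value was 0.38 with a fitted background correction (normexp) together with quantile normalization. Ascl2, a transcription factor of these cells, gave 2.62, 0.39, 0.75 and 1.40 and had the largest SD of the list. Over all genes of the order the median deviations were 0.05, 0.003, -0.01 and -0.04 in fed mice 1 to 4. The share of all genes highest or lowest in each array was not taken, so such counts for lists, above and below, have none beside them. All 8 reserve stem cell genes were in the order, at a median percentile of 37.1. Hopx, a marker of slow-cycling cells, read 1.71, 0.81, 0.69 and 0.41, and Clu, a marker of injury-induced cells, 1.06, 0.71, 0.02 and -0.13, with fed mouse 1 highest in both. Ly6a and Anxa1 are associated with a regenerating epithelium. Ly6a was lowest in fed mouse 1, at -0.98 against 0.98, 0.66 and 0.35. Anxa1 read -2.30, -0.38, -1.18 and -2.06, and whether fed mouse 1 or 4 was lowest turned with the scaling, at -2.14 and -2.19 under quantile normalization.

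Tuft cell genes differed between the arrays more than any other list with at least 5 members in the order. Of 17 on the array, 13 were in the order, at a median percentile of 45.2, and their median deviation was 1.08, -0.66, -0.16 and 0.01 in fed mice 1 to 4. In 11 of 13, fed mouse 1 was highest. Dclk1, a kinase used to mark tuft cells, read 2.45, 0.44, 1.29 and 1.30, Trpm5, their taste-pathway channel, 2.89, -0.42, 0.88 and 1.22, and Ltc4s, which makes leukotriene C4, 3.04, 0.29, 1.31 and 0.73. Thus fed mouse 1 was above the rest and fed mouse 2 lowest in all 3. Without fed mouse 1, the list's deviation in fed mouse 2 was -0.27. Avil, an actin-binding gene, had the largest SD, at 1.34, -2.42, -0.33 and 0.09.

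Enteroendocrine genes were graded across the arrays. Of 23, 15 were in the order, at a median percentile of 55.6, with median deviations of 0.44, 0.07, -0.26 and -0.46, and fed mouse 4 was lowest in 12, its value being -0.28 without fed mouse 2 and -0.25 with normexp, a fitted background correction, and quantile normalization. Cck, the cholecystokinin gene, read 3.96, 2.63, 2.08 and 1.49, and Chgb, a granule protein, 3.35, 2.48, 2.08 and 1.70. Chga, the best known granule marker, read 0.69, -0.16, -0.57 and -0.65. Sct, the secretin gene, did not show the gradient, at 2.79, 2.95, 2.99 and 2.46, and Pyy, the peptide YY gene, stood highest in fed mouse 2, at -2.88, -0.49, -2.71 and -3.21.

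Genes of mature enterocytes, which line the villus, were also read. Of 32, 25 were in the order, at a median percentile of 63.0, and fed mouse 2 was lowest in 17 of 25, with a median deviation of -0.46 against 0.09 to 0.22 in the others. Fabp1, a fatty acid carrier, read 4.56, 1.29, 3.46 and 4.70, and Fabp2, its relative, 4.51, 3.50, 4.30 and 4.24. Krt20, a keratin of differentiated cells, read 2.58, 3.23, 3.64 and 3.22 and so did not have fed mouse 2 lowest. Rbp2, a retinol carrier, and Sis, the sucrase-isomaltase of the brush border, were chosen after their values were seen. Rbp2 read 4.04, 1.63, 2.72 and 3.71, and Sis was well above background on 3 arrays only, at -0.79, -5.47, -1.47 and -1.03. Fed mouse 2 was lowest in both. The part of villus tissue in these values was not tested.

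Of 30 targets of p53, 29 were in the order, where 52.3% of all names were, at a median percentile of 63.5. Cdkn1a read 5.45, 5.30, 5.27 and 4.84, at rank 603, and its next probe stood at a mean of -0.84. Rps27l, a ribosomal protein relative induced by p53, read 5.71, 5.32, 5.37 and 4.81, and Aen, a nuclease of apoptosis, 4.9996, 4.50, 4.35 and 4.21. All 3 were highest in fed mouse 1 and lowest in fed mouse 4. The same held for Mdm2, the ligase that degrades p53, at 4.02, 3.98, 3.60 and 3.29, for Bax, a pore-forming death protein, at 3.95, 3.87, 3.39 and 3.02, and for Bbc3 at 3.70, 3.41, 3.15 and 3.13. Under quantile normalization fed mouse 2 was highest in Cdkn1a, Mdm2 and Bax, and fed mouse 3 was lowest in Aen and Bbc3.

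Over the list, the median deviation was 0.45, 0.13, -0.17 and -0.37, with fed mouse 1 highest in 24 of 29 and fed mouse 4 lowest in 21. All genes between percentiles 60 and 70, where the list has its median, leaned the same way by less, at 0.06, 0.05, -0.03 and -0.08. The value of fed mouse 1 was 0.29 without fed mouse 4, 0.35 with quantile normalization alone, 0.28 with normexp added and 0.28 in the authors' deposited matrix, and that of fed mouse 4 became -0.24 without fed mouse 1. Eda2r, a death receptor family gene on the X chromosome, had the largest SD, at -0.83, -1.50, -2.23 and -3.17. These are levels in treated crypts only. The series has no array from mice given no drug to set them against.

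The drug's own target enzymes were read at uneven depth. Top2a, the topoisomerase II of dividing cells, stayed under the background criterion in all 4 mice, at -5.30, -5.32, -3.64 and -5.88. Top2b, the form present in all cells, read 0.73, 1.05, 1.07 and 0.71. Top1, which etoposide does not poison, read 2.38, 2.53, 2.12 and 2.05, and Top3a, a topoisomerase of recombination, 4.18, 3.39, 2.79 and 3.54. Of 8 genes for topoisomerases and adduct removal, 6 were in the order, at a median percentile of 64.4.

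Genes of cell division lay lower in the order. Of 30, 23 were in the order, at a median percentile of 44.1. Mki67, present in cycling cells, read 0.74, -0.03, -0.15 and -0.31. Mcm6 and Mcm7, parts of the replication helicase, had levels of 1.98 and 1.76, and Stmn1, a microtubule regulator, of 3.78. Ccnb1, the mitotic cyclin, had the largest SD of the list, at -1.45, -0.98, -1.86 and -2.73. Replication-dependent histone genes lay at a median percentile of 91.8, with 35 of 49 in the order. Immediate early genes, the first to be transcribed after many stimuli, were in the order for 26 of 32, at a median percentile of 53.3, with fed mouse 2 highest in 16. Jund read 4.14, 4.09, 3.52 and 3.54, and Nr4a2 -0.76, -1.50, 0.63 and -1.10, the largest SD of that list.

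Genes of protein secretion and protein folding were steady. All 24 for endoplasmic reticulum work were in the order, at a median percentile of 78.3, among them Sec61g, part of the translocon, at 5.64, Calr, a chaperone, at 5.25, and Atf4, a stress transcription factor, at 4.78, 5.001, 4.95 and 4.998. Heat shock genes were in the order for 11 of 12, at a median percentile of 82.2, led by Hspa8 at 5.68. Hsph1, a co-chaperone of Hspa8, varied most, at -0.56, 0.14, -0.18 and 1.39, highest in fed mouse 4. Both metallothioneins were in the order, Mt2 at 5.34 and Mt1 at 4.89, with a median percentile of 95.9. The metallothioneins were not steady, with a median deviation of 0.59 in fed mouse 1 and -0.49 in fed mouse 4, and Mt1 read 5.53, 4.69, 5.01 and 4.32. Epithelial structure genes had a median SD of 0.21 over 22 members, and Lgals4, a galectin of the gut lining, read 6.35, 6.02, 5.93 and 5.98.

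Genes of cells outside the epithelium were also in the order, in shares to be read beside the 52.3% of all names, and some differed between captures. Of 12 stromal and smooth muscle genes, 9 were in the order, with median deviations of 0.23, 0.39, 0.27 and -0.74, and fed mouse 4 was lowest in 8 of 9. The value of fed mouse 2 was 0.01 without fed mouse 4. Col3a1, a fibrillar collagen, read 5.33, 4.41, 4.72 and 2.29, Col1a2 4.94, 4.68, 4.43 and 2.54, and Col1a1 4.08, 3.52, 3.59 and 0.79. Fed mouse 4 lay below the other 3 arrays in each collagen, and those 3 lay near each other. Dcn, a matrix proteoglycan, followed with 4.22, 4.11, 3.76 and 2.77.

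Leukocyte genes were in the order for 12 of 18, at a median percentile of 57.2. Cd74, the invariant chain of antigen presentation, read 5.02, 5.68, 4.56 and 5.19, and Csf1r, the macrophage growth factor receptor, 4.28, 4.32, 4.53 and 4.81. Gzma, a granule enzyme of cytotoxic lymphocytes, spanned more, at -2.38, 1.80, 1.00 and 0.11, lowest in fed mouse 1 and highest in fed mouse 2. Endothelial genes were in the order for 6 of 9, with Kdr, a vascular growth factor receptor, at 0.40, 0.23, 1.08 and 1.30. Erythroid genes were in the order for 3 of 5, and Hba-a1, an alpha globin, read 0.61, 2.19, 2.57 and 0.49. Nerve and glia genes were in for 5 of 9, Snap25 among them by its repeat probe, and pancreatic acinar genes for 6 of 9, at median percentiles of 26.5 and 17.3, and Gfap, a glial filament, read -1.29, -1.41, 0.03 and -2.03. The part of these cells in the epithelial differences between arrays was not tested.

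Transcripts of the mitochondrial genome were all in the order, 13 of 13 at a median percentile of 97.5, and stood apart in 1 array. All 13 were highest in fed mouse 1, with a median deviation of 0.82 against -0.39, -0.14 and -0.38. ND1, a complex I subunit, read 7.27, 5.86, 6.18 and 5.96, and COX3, a cytochrome oxidase subunit, 7.35, 5.83, 6.11 and 5.93. The files place the COX3 and ND4L probes on chromosome 1 of mm9 and the ND1 and ND6 probes on the mitochondrial chromosome of the same build. ND6, which is read from the other strand, had the largest SD, at 7.15, 5.76, 5.64 and 5.46.

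Nuclear genes of the respiratory chain and of the ribosome leaned the same way by less. The median deviation of 76 respiratory chain genes (of 79 on the array) was 0.42 in fed mouse 1 and -0.36 in fed mouse 4, and that of 78 ribosomal protein genes (of 81) was 0.35 and -0.30. Fed mouse 1 was highest in 74 of the 78 ribosomal genes and fed mouse 4 lowest in 66. Uqcr11, a complex III subunit, read 6.69, 6.12, 6.11 and 5.55, and Rps14 7.12, 6.57, 6.65 and 6.43. The brightest 10% of the order as a whole deviated by 0.23 in fed mouse 1 and -0.18 in fed mouse 4, and these lists sit at percentiles 91.1 and 96.5. With quantile normalization, which gives every array the same distribution, the ribosomal values shrank to 0.20 and -0.18 and the respiratory values to 0.27 and -0.24, while the mitochondrial value of fed mouse 1 was 0.72. With the array median in place of the 75th percentile, the ribosomal values were 0.58 and -0.46. Without fed mouse 1, the ribosomal value of fed mouse 4 was -0.18, the respiratory value -0.23 and the mitochondrial value -0.05. Fed mouse 1 also had the smallest share of probes above background, and the part of that in these values was not tested.

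**Figure D4:**
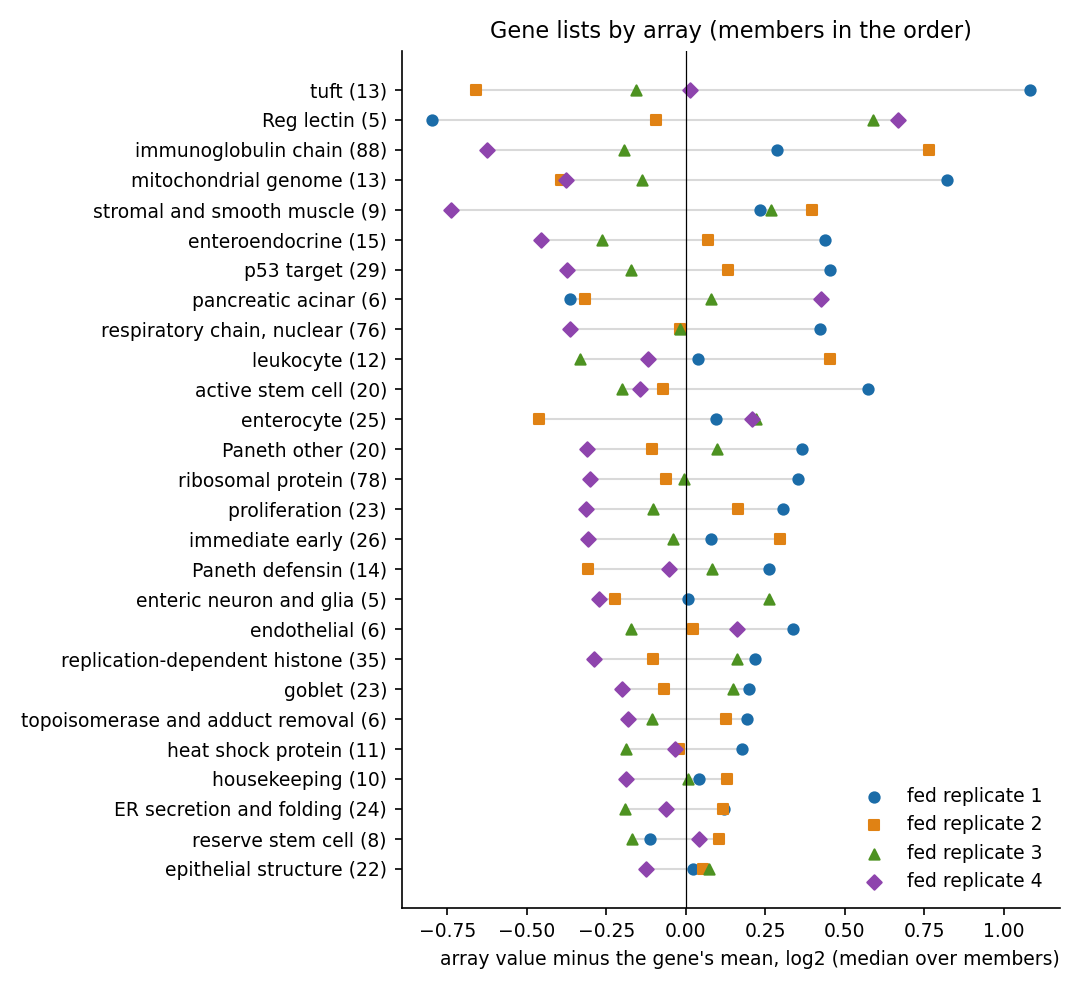
Median over the members in the order of each array's value minus the gene's mean (x axis, log2), for each gene list with at least 5 members and for immunoglobulin chains (y axis, number of members in parentheses), 1 marker per fed mouse. The tuft list spreads from -0.66 to 1.08 and the epithelial structure list least, and fed mouse 1 lies at the right end in the mitochondrial genome list, at 0.82.

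The fed arrays differed unevenly across genes. The median SD between arrays was 0.353, and 73.3% of genes had an SD under 0.5. An SD above 1 was found in 444 of 15811 genes (2.81%) and above 2 in 5. The signals of array pairs correlated at Pearson r from 0.938 (fed mice 1 and 4) to 0.977 (fed mice 3 and 4), across genes, which are not independent replicates. A difference of more than 1 log2 unit was found in 20.2% of genes between fed mice 1 and 4, in 15.9% between fed mice 1 and 3, and in 4.55% between fed mice 3 and 4. Fed mouse 1 was the array farthest from the other 3 in 39.9% of genes, fed mouse 4 in 26.3% and fed mouse 3 in 14.8%. Among the 444 genes with an SD above 1 the direction differed by array. Fed mouse 1 was the farthest in 181 of them (40.8%), near its 39.9% of all genes, and low in 130 of those. Fed mouse 3 was the farthest in 122 (27.5%), against 14.8% of all genes, and high in 117 of those. Over all genes where it was the farthest, fed mouse 1 was high in 3634 of 6310, and fed mouse 3 in 1162 of 2343.

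Of the probes printed in 10 spots, 201 were above background on all 4 arrays. Their median SD between spots of 1 array was 0.094, which covers printing and scanning only, and their median SD between arrays 0.353. Dim genes varied more, with a median SD of 0.448 in the second-lowest class of 10% of the order and 0.272 in the brightest 10%. How many genes passed an SD of 1 depended on the background step and on the filter. The count was 186 with a fitted background correction and quantile normalization, 1146 when 3 arrays above background were enough, and 3004 with no filter. The last 2 counts come from larger sets of names, which add for example the 1714 above background on 3 arrays only.

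**Figure D5:**
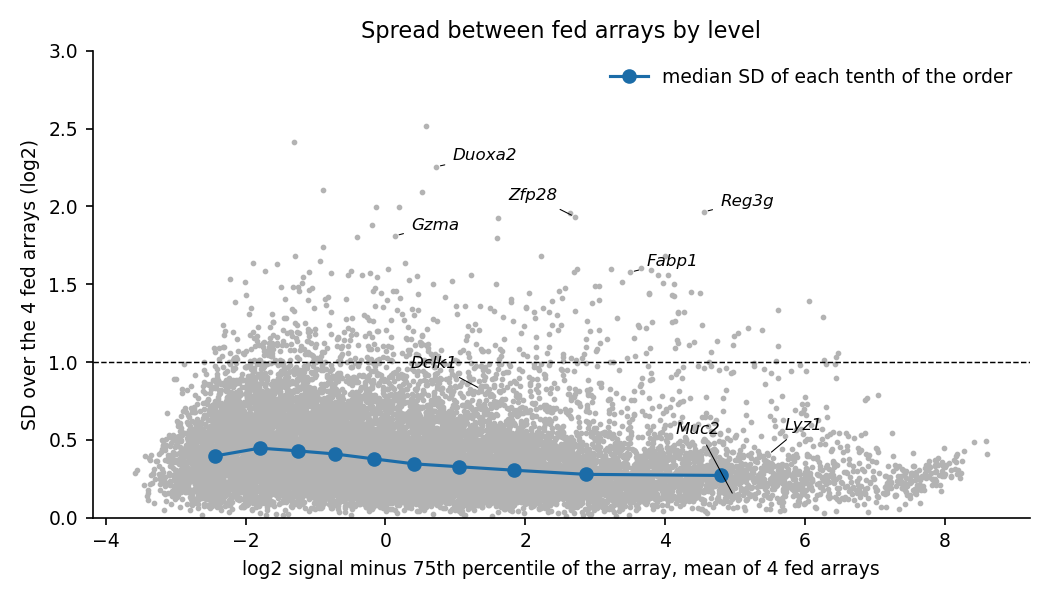
SD of log2 signal between the 4 fed arrays (y axis) against the mean log2 signal relative to the 75th percentile (x axis), for genes of the order. Most genes lie under 0.5, the median SD falls to 0.272 in the brightest 10%, and 444 genes lie above 1.

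The steadiest genes with a level above 0 varied by a few hundredths of a log2 unit. The smallest SD belonged to Gon4l, a chromatin regulator, at 1.53, 1.52, 1.54 and 1.54. Il17rc, a subunit of the interleukin 17 receptor, read 2.93, 2.91, 2.94 and 2.94. Sae1, a subunit of the SUMO-activating enzyme, read 2.56, 2.58, 2.60 and 2.57, and Pak2, a kinase, 1.13, 1.14, 1.17 and 1.12. H2-Q2, Lrrc59, Ccnl2 and Fkbpl were as close, and Itga6 and Llph too, though these last ones were read by repeat probes. Of the common reference genes, Actb read 6.88, 6.95, 6.89 and 6.50, and Gapdh 5.93, 6.29, 6.34 and 6.32. These 10 genes are the extreme of the 8255 genes (52.2% of the order) above the 75th percentile, so a small SD is what chose them.

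At the other end, with large SDs, were some antimicrobial and barrier genes that were low in fed mouse 1. Other antimicrobial genes, such as Lyz1 and Defa3, were highest in fed mouse 1. Duoxa2, the maturation factor of the peroxide-making enzyme Duox2, read -2.48, 2.39, 0.79 and 2.21, and Duoxa1, its neighbour, 0.50, 3.95, 2.70 and 3.82. Reg3g, a lectin that kills Gram-positive bacteria, read 1.62, 5.45, 5.71 and 5.46. Fed mouse 1 lay below the other 3 in each. A list of 8 names, the Reg lectins and Retnlb, had 5 in the order, Retnlb among them, with median deviations of -0.80, -0.09, 0.59 and 0.67, and the value of fed mouse 1 was -0.50 without fed mouse 4 and -0.42 with normexp and quantile normalization. Reg4 went the other way, at 6.10, 4.52, 5.39 and 4.61.

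A different group was high in fed mice 1 and 3. Gsdmc, a member of the pore-forming gasdermins, read 3.81, 0.04, 2.31 and 0.22, Gsdmc3 3.84, 0.88, 2.39 and -0.63, and Rbp7, a retinol-binding protein, 2.91, 0.78, 1.92 and -0.72. In each of these, fed mouse 1 was first and fed mouse 3 next. Retnlb, a bactericidal protein of goblet cells, read 2.52, 0.71, 3.86 and 2.74, and so was low in fed mouse 2 only. The 2 labelled males and 2 labelled females cannot carry a sex comparison here, since fed mouse 4 goes against its label.

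Another group was high in fed mice 3 and 4. Dcp1b, an mRNA decapping factor, read 0.95, 0.96, 4.62 and 4.02, Zfp28, a zinc finger gene, 1.34, 0.82, 4.77 and 3.94, and Shank1, a synaptic scaffold, 1.91, 1.82, 4.94 and 4.23. Tex36, a testis gene, read 2.75, 2.23, 5.66 and 4.58, and Olfr399, an olfactory receptor gene, 0.65, 1.01, 4.19 and 3.05. Fed mice 1 and 2 were below fed mice 3 and 4 in all of these. For Shank1 this holds for the probe used, since under quantile normalization another of its probes became the brightest, at 3.37, 2.67, 3.13 and 3.69. Iqcd read 1.41, 3.65, 5.01 and 4.55. Cul4a, a ubiquitin ligase scaffold read by a repeat probe, followed at -0.89, -1.72, 1.06 and 1.67.

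Dcp1b and Tex36 hold 8-base words that stood out in a scan of the probes by array, while Zfp28, Shank1, Olfr399, Iqcd and Cul4a hold none of them. To show such words, 4 probes are printed as 30 bases each, 5′ to 3′, with the words in capitals, the last 2 being from genes outside that group.
Dcp1b: ctggtgtgaccAAACACACTtatgcctttt
Tex36: taaagactctgaCCCAACACtacctcatga
Abcc12: caccaaaggtaCCAACACACAgttcatgtc
A430034D21Rik: ttagtgattactAACACACCcctatatttt
Abcc12 and A430034D21Rik were chosen after their values were seen. Words were read on the printed strand, every 8-base word in at least 25 genes was scored, and repeat probes were left out. For each word, the median deviation of its genes was taken on each array. The 8533 words had a median range between arrays of 0.216, and 99% of them stayed at or below 0.623.

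The widest ranges belonged to 1 family of overlapping words. CAACACAC, in 30 genes, had deviations of -0.38, -0.86, 1.04 and 0.16, a range of 1.90, and AACACACC, in 28 genes, -0.54, -0.64, 0.99 and 0.28, a range of 1.63. In all, 12 words passed a range of 1.2, and 258 genes of the order (1.63%) hold at least 1 of them. Fed mouse 3 was highest in 190 of the 258 and fed mouse 2 lowest in 165. These genes were 39 of the 444 with an SD above 1 (8.78%), and repeat probes were 22 (4.95%). The words were picked by their range on these same fed arrays. The counts for the 258 genes therefore reflect that choice and carry no test. On the 4 fasted arrays the same genes had median levels of 0.22, 1.08, -0.50 and 0.88, against 0.65, 0.44, 1.59 and 1.03 on the fed, so both groups spread widely.

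Some words were also bright. Among all probes with no run above 9 bases, those holding AACACACC had a median level of 3.64 over 37 probes, 0.0989% of all probes, and those holding its reverse complement GGTGTGTT -2.64 over 31. For ACACACCC the median was 3.45, and for CCTCTGCC 2.93 over 57 probes, where 99% of 33228 words stayed at or below -0.07. The words were picked for these values, so they carry no test. What these probes bind was not tested.

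Just outside the order, 1714 names were well above background on 3 of the 4 arrays, with a median level of -2.88, and 9372 on none, with a median of -5.62. The dimmest genes inside were Lrrc73 at -3.58 and Olfr368 at -3.55. The brightest outside was Reg3b, an antimicrobial lectin, at -3.81, 4.19, 4.37 and 4.60, which missed the order because fed mouse 1 was not well above background. These 3 were chosen after their values were seen. The requirement on all 4 arrays therefore leaves out some of the genes that varied most, and the values of spread above hold for genes that passed it.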

How the data were processed

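Feature Extraction (version 11.5.1.1, per the submitters' processing notes) had produced 1 deposited scanner file per array, with background-subtracted Cy5 intensity per spot. The authors' deposited matrix holds log2 values, set against the scanner values as an alternative. Its log2 scale follows from that comparison, and its centring stays unknown. Control spots and outlier-flagged spots were left out, leaving 43020 spots of 39429 probes and 30214 gene names, spots of a probe were averaged, and log2 of the processed intensity was taken minus the array's 75th percentile. The brightest probe of each name was kept. Per-gene SDs are over n = 4 mice, and no test was run, so the number of arrays limits the precision. A tandem run is a unit of 1 to 4 bases repeated over at least 12. Positions are mm9 as the files give them. Of the 15811 names, 12264 matched a current RefSeq symbol, and 1393 are unnamed probes.

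Named genes were the 25 highest with a symbol, the 15 largest and 10 smallest SDs above the 75th percentile, fixed markers, and each list's 3 highest members and largest SD. Members and lists were chosen with earlier results of these data known, and leaving out repeat probes, the word scan, immunoglobulins and repeat classes were chosen after seeing the data. Alternatives covered scaling, background (limma 3.58.1 normexp, offset 50, in R 4.3.3), probe choice, filter and each array left out. Python 3.11.15 with pandas 2.3.3 did the rest, tested on simulated data.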

Additional observations from a re-analysis of the deposited data

Results flagged for a closer look

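In 7 of 162 named genes and 2 of 28 lists, 1 fed array stood far from the other 3 by Dixon's ratio. Chance flags about 1 in 20 groups, which is close to 4.32% of the genes and 7.14% of the lists. Fed mouse 1 accounted for 6 of them and fed mouse 4 for 3.

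Fed mouse 1 was high in Defa3, at 7.70 with the next array at 6.86, and in Ephb3, at 7.93 with the next at 7.54, the latter read by a repeat probe. It was also high in the median deviation of the active stem cell list, at 0.57 with the next at -0.07. It was low in Reg3g, at 1.62 with the next at 5.45, in Krt19, a keratin of the crypt epithelium, at 5.40 with the next at 5.98, and in Gapdh, at 5.93 with the next at 6.29.

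Fed mouse 4 was low in Actb, at 6.50 with the next at 6.88 (with normexp and quantile normalization, fed mouse 3 was lowest), in Hist1h4k, at 6.52 with the next at 7.10, and in the stromal and smooth muscle list, at -0.74 with the next at 0.23.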

How the results depend on the processing

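The main values were 15811 genes in the order, a median SD of 0.353, 444 genes with an SD above 1, levels of 5.48, 2.93 and 4.99 for Lyz1, Olfm4 and Muc2, 21 lists with a median above the 50th percentile, and 6 lists whose array deviations span more than 1. Of 108 alternative values of these, 95 stayed close and 13 moved, and no tracked deviation of a list reversed. With the array median as the zero, Lyz1 was 8.02, Olfm4 5.47 and Muc2 7.53, and 13 lists spanned more than 1. With normexp and quantile normalization, 186 genes had an SD above 1, the levels were 4.98, 2.46 and 4.73, and 3 lists spanned more than 1. Muc2 was 4.64 in the authors' deposited matrix. The count with an SD above 1 was 1146 with 3 arrays above background and 3004 with no filter, both over more names than the 15811. Leaving out 1 array at a time gave 2 to 6 lists spanning more than 1, with 2 when fed mouse 1 was left out. The cause was not tested in any of these. No paired analysis was possible because the results come from no test.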

Other observations

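Immunoglobulin chains, the products of plasma cells, which lie in the tissue around crypts, were picked by their file descriptions after the values were seen. Of 137 names, 88 were in the order, where 52.3% of all names were, at a median percentile of 56.8. Their median SD was 0.90, and 32 had an SD above 1, as did 444 of the 15811 genes of the order (2.81%). Their median deviations were 0.29, 0.76, -0.20 and -0.63 in fed mice 1 to 4, with fed mouse 2 highest in 54 and fed mouse 4 lowest in 44. Igj, the joining chain of secreted antibodies, read 1.86, 1.88, 0.10 and 0.13. Chains share sequence, so these signals are not independent of each other.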
